A study of Mus musculus with 4 samples.

Results

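The myogenic regulatory factors Myod1, Myf5, Myf6 and Myog, the Mef2 factors Mef2a, Mef2c and Mef2d, and the paired box factors Pax3 and Pax7 were followed in C2C12 cells, a mouse myoblast line that can be differentiated into myotubes in culture. These 9 genes were taken as every non-control probe whose gene name on the array is one of them, which gave 12 probes printed on 48 spots, of 55681 probes, 59305 non-control spots and 28313 named genes in all. The cells had been transfected with siFxr1, an siRNA directed at a constitutive exon of Fxr1, or with siControl, a random siRNA of matching base composition. Total RNA of 2 siFxr1 and 2 siControl samples, described as biological replicates, was hybridized on 4 one-colour arrays, each experiment holding 1 sample of either condition on 1 slide. No genotype other than that of the line was given. The methods word the culture of the line as "under confluence state", and all cells were collected at a single time after transfection. The line is a subclone, so the 2 experiments are 2 cultures of 1 line and not 2 animals.

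In the embryo and in satellite cells, Pax3 and Pax7 mark the progenitors of skeletal muscle, Myf5 and Myod1 commit them to the myoblast fate, and Myog together with Myf6 directs terminal differentiation. The myogenic regulatory factors are basic helix-loop-helix proteins that bind E-boxes as dimers with E-proteins. The Mef2 factors bind A/T-rich sites and act with them on the promoters of muscle structural genes.

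The targeted gene was checked first. Its brighter probe (A_51_P372463) had log2 intensities of 10.15 and 10.77 in siFxr1 and of 13.84 and 13.71 in siControl, and the conditions did not overlap. The second probe (A_55_P2069415) had 9.36 and 9.96 against 13.20 and 13.34. The RNA integrity number was 8 for the siFxr1 sample of experiment 1 and 9 for the others, and from 45.4% to 52.9% of probes were well above background, which means that at least 0.5 of a probe's spots carried the scanner software's mark for it. Of the 8 myoblast markers, 7 were well above background on all 4 arrays and Myf5 was not on any. The defining adipocyte markers Adipoq and Plin1, the fibroblast marker Thy1 and the leukocyte marker Ptprc were well above background on 0 arrays, whereas Fabp4, Pdgfra and Cd3e of the same 3 lists were on all 4, at 7.93 to 10.13, 10.95 to 11.95 and 9.40 to 10.60.

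Some probes of these genes carry features in their sequence that bear on how they can be read. The probes are 60 bases long, and at most 30 bases are shown of those that do not cross an intron. The probe of Myog, the member whose intensity varied most, and that of Myod1 are shown with that of Myf5 and both probes of Mef2a, each from base 16 to base 45, 5′ to 3′. Capitals mark the polyadenylation hexamer.

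Myog (A_51_P102122): cagtgctttgtgtattgtttattgttttgt
Myod1 (A_51_P351166): tgtagtccttcagttgtttgtttgtttttt
Myf5 (A_51_P188281): aataacttgataAATAAAtgtactattatt
Mef2a (A_55_P1985159): tgtatgttggtgtgagtgtgtgtgtatgtg
Mef2a (A_65_P08239): ctttatcttgttttaactttttagttttat

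The Myf5 probe holds 9 G or C bases of 60 and the hexamer 2 times, against 10.1% of all probes with at least 1 copy. Of the 27 probes with a base composition this poor in G and C, 1 (3.70%) was well above background on all 4 arrays, against 42.2% of all 55681 probes. The brighter Mef2a probe is a TG-rich stretch with 16 TG dinucleotides, a count reached by 0.101% of probes, whose median is 5, and the dimmer one holds 30 T bases and a run of 6 T.

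Probes that cross an intron read the joined exons. They exist for Mef2c and for the dimmer Mef2d probe, and are shown whole and 5′ to 3′.

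Mef2c (A_55_P2155620): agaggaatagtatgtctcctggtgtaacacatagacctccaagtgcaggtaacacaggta
Mef2d (A_51_P504672): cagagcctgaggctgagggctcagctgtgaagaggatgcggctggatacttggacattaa

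On mm9 the Mef2c probe lies on chr13:83772788-83775025, a span of 2238 bases for 60 bases of probe, and the Mef2d probe on chr3:87972214-87972560, a span of 347. The other probes lie on mm9 at chr7:53633956-53634015 (Myod1), chr10:106919974-106920033 (Myf5), chr10:106930237-106930296 (Myf6), chr1:136188874-136188933 (Myog), chr7:74379575-74379634 and chr7:74378751-74378810 (Mef2a), chr3:87972971-87973030 (Mef2d), chr1:78099294-78099353 and chr1:78099476-78099535 (Pax3) and chr4:139294364-139294423 (Pax7). An annotation of that build was not used here, so whether a probe lies in a coding exon or an untranslated region is not stated. 

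Promoters of 6 of the 9 genes were matched in the RefSeq table on GRCm38.p6. The 250 bases before the Myog start, chr1:134289754-134290003 on the plus strand, are shown because Myog was the member that differed between the experiments. Capitals mark E-boxes (CANNTG) and the MEF3 motif (TCAGGTT), searched on both strands.

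Myog promoter: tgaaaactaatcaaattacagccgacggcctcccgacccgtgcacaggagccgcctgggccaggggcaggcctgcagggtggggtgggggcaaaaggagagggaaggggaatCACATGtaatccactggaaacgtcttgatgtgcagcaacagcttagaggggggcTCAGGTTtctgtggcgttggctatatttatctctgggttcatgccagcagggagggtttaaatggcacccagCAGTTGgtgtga

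This window holds 2 E-boxes and 1 MEF3 motif, and the motifs do not overlap. Among 32851 promoter windows of this length, 66.2% hold an E-box and 3.49% a MEF3 motif. The MEF2 consensus was searched as YTAWWWWTAR, where Y is C or T, W is A or T and R is A or G. This strict form was found in 2.92% of windows. It is not in this one, nor in those of Mef2a, Mef2c, Mef2d, Myf5 and Pax7, which says only that its letters are not there. The Myog window holds ctatatttat, which departs from that form at its last base only, so a looser search would count it. A match is a description of the sequence.

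Values below are log2 intensities after quantile normalization. Differences are given with the standard error and the 95% interval of limma's model, and they come from 2 arrays per condition. A probe was called at a B value, limma's log odds of a difference, above 0 or, separately, at a Benjamini-Hochberg adjusted p under 0.05.

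**Figure D1:**
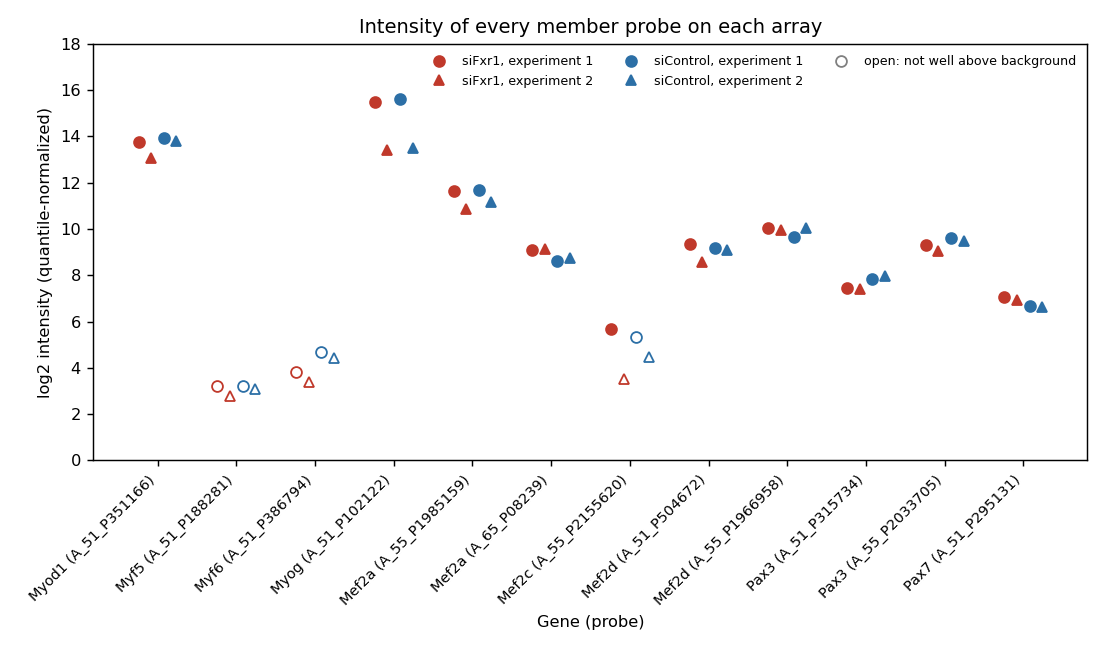
Log2 intensity (y axis) of the 12 probes (x axis) on each of the 4 arrays, with siFxr1 in red and siControl in blue, experiment 1 as circles and experiment 2 as triangles, and open symbols where the probe was not well above background. The Myog probe has its experiment 1 arrays at 15.51 and 15.64 and its experiment 2 arrays at 13.42 and 13.50, and all symbols of Myf5 and Myf6 are open.

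Myod1, Myog, Mef2a, Mef2d, Pax3 and Pax7 were detected on all 4 arrays through 9 of the 12 probes. Myf5 (A_51_P188281), the earliest of the commitment factors to appear in the embryo, had 3.21 and 2.78 in siFxr1 and 3.22 and 3.08 in siControl, not well above background on any array. Myf6 (A_51_P386794), the factor of late fibre maturation, had 3.80 and 3.38 in siFxr1 and 4.69 and 4.42 in siControl and was likewise not well above background on any array. Mef2c had 5.66 and 3.51 against 5.31 and 4.48, and was well above background on the siFxr1 array of experiment 1 only. No fold is given for these genes, since the lowest signals well above background on the 4 arrays lay between 4.19 and 5.36.

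The first comparison asked whether depletion of Fxr1 changed the factors that govern myoblast identity and differentiation. No member was called. Over all probes 0 of 55681 were called at B above 0 (0%) and 0 at an adjusted p under 0.05 (0%), the Fxr1 probes included. An unadjusted p under 0.05 was reached by 2764 of the 55681 probes and by 2 of the 12 member probes. Of these 2, 1 was a Pax3 probe and the other was that of Myf6, which was not well above background on any array.

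Myod1 (A_51_P351166), the commitment factor of myoblasts, had 13.77 and 13.07 in siFxr1 and 13.93 and 13.80 in siControl. Both siFxr1 arrays lay below both siControl arrays, and the lowest was that of experiment 2. The difference, siFxr1 minus siControl, was -0.45 (SE 0.31, interval -1.40 to 0.51, limma adjusted p = 0.975). The difference was -0.17 in the first experiment and -0.73 in the second, and it was -0.10 without the siFxr1 array of experiment 2 and -0.79 without that of experiment 1. The fits without an array had no term for the experiment, so the split between experiments enters their values.

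Myog (A_51_P102122), the factor that starts terminal differentiation, had 15.51 and 13.42 in siFxr1 and 15.64 and 13.50 in siControl. The conditions overlapped. The difference was -0.10 (SE 1.18, interval -3.70 to 3.50), and the spread within each condition came from the split between experiments. With the experiment as a replicate block, the standard error was 0.19 and the interval ran from -0.70 to 0.50 (limma adjusted p = 0.889), and within experiments 1 and 2 the differences were -0.13 and -0.08. After scaling to the 75th percentile the value turned to 0.032.

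Pax3, the progenitor factor of the embryonic somite, was lower in siFxr1 on both of its probes and in both experiments. The brighter (A_55_P2033705) had 9.29 and 9.05 in siFxr1 and 9.62 and 9.49 in siControl, and the other (A_51_P315734) had 7.45 and 7.39 against 7.85 and 7.96. The conditions did not overlap on either probe. The differences were -0.38 (SE 0.18, interval -0.93 to 0.17) and -0.49 (SE 0.15, interval -0.96 to -0.02), and the second had an unadjusted limma p of 0.0443 that was 0.0861 with the replicate block and 0.975 after adjustment. Neither was called.

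Pax7 (A_51_P295131), the factor of satellite cells, had 7.08 and 6.91 in siFxr1 and 6.68 and 6.65 in siControl. The conditions did not overlap here either, in the direction opposite to Pax3. The difference was 0.33 (SE 0.16, interval -0.16 to 0.82, limma adjusted p = 0.975), and it was 0.39 and 0.26 when taken within each experiment.

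The probes of Mef2a did not move together. The brighter (A_55_P1985159) had 11.65 and 10.88 in siFxr1 and 11.70 and 11.18 in siControl, a difference of -0.17 (SE 0.39, interval -1.36 to 1.02) with overlapping conditions. The dimmer (A_65_P08239) had 9.09 and 9.15 against 8.63 and 8.73, with no overlap and a difference of 0.44 (SE 0.15, interval -0.02 to 0.91). For Mef2d, A_55_P1966958 had 10.05 and 9.97 in siFxr1 and 9.67 and 10.04 in siControl, and the probe across the intron had 9.37 and 8.57 against 9.16 and 9.08. These probes also gave opposite signs, 0.15 (SE 0.21) for A_55_P1966958 and -0.15 (SE 0.35) for the probe across the intron, and on both the conditions overlapped. A direction for Mef2a or Mef2d was therefore not given by these arrays. Mef2b, the remaining gene of the family, had 6.18 and 4.82 in siFxr1 and 5.80 and 5.34 in siControl (A_55_P1959784), a difference of -0.07 (SE 0.58).

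At the 9 member probes detected on all 4 arrays, the condition differences lay between -0.49 and 0.44. Of the 15027 genes detected on all 4 arrays, 65.2% had the same sign of the condition difference in both experiments. How many of these genes had conditions that did not overlap was not counted. The lack of overlap at member probes is therefore a description of their values only. At their brightest probes, the absolute differences of Myod1, Pax3 and Pax7 were larger than those of 70.7%, 64.7% and 58.5% of the 15027 genes. Those of Mef2a, Mef2d and Myog were larger than 34.1%, 30.8% and 21.4%. With the replicate block and probes dim in both conditions left out, 354 of 25540 probes (1.39%) were called at B above 0, and 0 member probes were among them. With each siFxr1 array divided by each siControl array, and these 4 ratios fitted as if they were separate samples, 1107 of 55681 (1.99%) were called, and again 0 member probes.

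**Figure D2:**
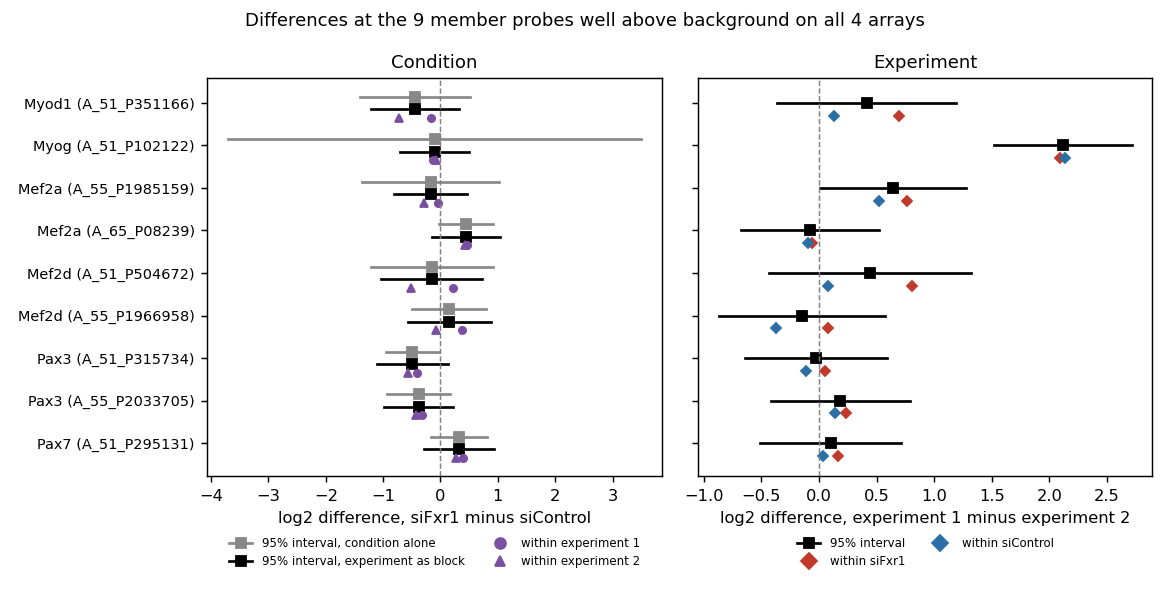
Log2 differences (x axes) at the 9 member probes detected on all 4 arrays (y axis), siFxr1 minus siControl at left and experiment 1 minus experiment 2 at right, with 95% intervals of limma's model as lines and the values within each experiment or condition as small symbols. At left the Myog interval narrows from -3.70 to 3.50 with the condition alone to -0.70 to 0.50 with the experiment as a block, and at right it runs from 1.52 to 2.72.

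The second comparison, experiment 1 against experiment 2, describes how the factors varied between the cultures, whatever the siRNA. Experiment and slide are the same split here and cannot be told apart. In bulk RNA, a change in the number of differentiating cells and a change in RNA per cell cannot be told apart either.

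Myog was higher in experiment 1 by 2.12 on the log2 scale (SE 0.19, interval 1.52 to 2.72), which is 4.33-fold, and the split was 2.09 in siFxr1 and 2.14 in siControl. Both experiment 1 arrays lay above both experiment 2 arrays, and this absolute difference was larger than that of 98.3% of the 15027 genes detected on all 4 arrays. B was 0.017 and the limma adjusted p was 0.108, so the call stood at the edge of the threshold for B and missed that for p. It was 1 of 664 probes called at B above 0 (1.19%), of which 190 were higher in experiment 1 (0.341%). An adjusted p under 0.05 was reached by 0 probes, although 11172 of 55681 had an unadjusted p that low. Among these were 3 member probes, that of Mef2c, well above background on 1 array only, the brighter of Mef2a and that of Myog. Without any one of the 4 arrays the difference stayed between 2.05 and 2.18, B fell below 0 and the adjusted p ran from 0.173 to 0.212. Among probes not dim in both conditions the adjusted p was 0.00636, and 1 of the 9 member probes that passed this filter was called there, against 4342 of 25540 probes (17.0%). Over the settings with all 4 arrays, the limma adjusted p of Myog ranged from 3.67e-06 to 0.108 and its difference from 2.07 to 2.62.

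The other members differed less. Myod1 was 0.41 higher in experiment 1 (SE 0.25, interval -0.36 to 1.19), with 0.69 in siFxr1 and 0.13 in siControl. It was 0.05 without the siFxr1 array of experiment 2 and 0.78 without the siControl array of experiment 2, in fits with no term for the condition. The brighter Mef2a probe was 0.64 higher (SE 0.20, interval 0.01 to 1.28, limma adjusted p = 0.246), whereas the dimmer gave -0.08 (interval -0.68 to 0.52). Pax3 gave 0.19 (interval -0.42 to 0.79) and -0.03 (interval -0.64 to 0.59) on its probes, and Pax7 gave 0.10 (interval -0.51 to 0.71), which turned to -0.24 after scaling to the 75th percentile. The intervals of Myod1, Mef2a, Mef2d, Pax3 and Pax7 ended below the lower bound of the Myog interval, 1.52, on all 8 probes, but the difference between genes was not tested.

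**Figure D3:**
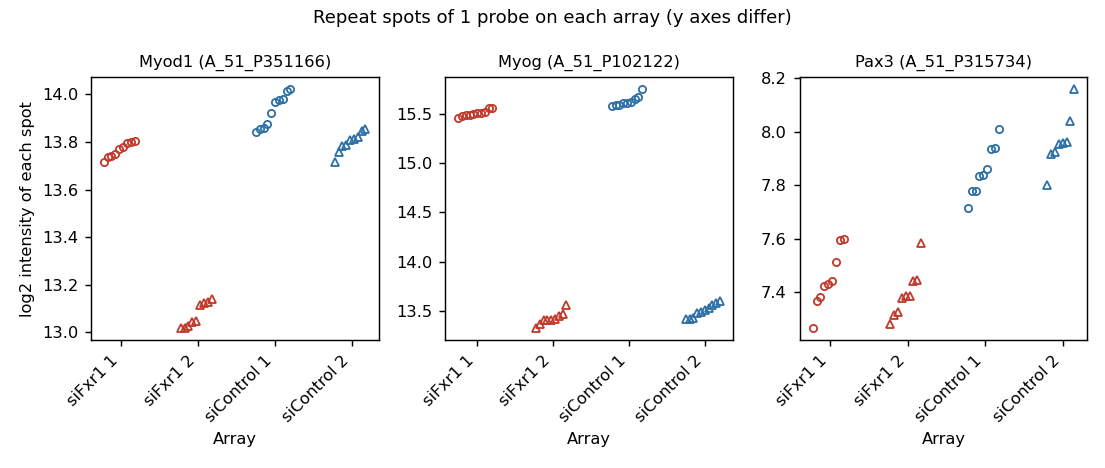
Log2 intensity (y axes, which differ) of the repeat spots of 1 probe each of Myod1, Myog and Pax3 on the 4 arrays (x axes), with spots sorted by value within an array, outlier spots left out, siFxr1 in red, siControl in blue, experiment 1 as circles and experiment 2 as triangles. For Myog the spots of the experiment 1 arrays and of the experiment 2 arrays form 2 separate sets, and for Pax3 the spots of the siFxr1 arrays lie below those of the siControl arrays.

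The probes of Myod1, Myog, Myf5 and this Pax3 probe (A_51_P315734) were each printed on 10 spots, which gives the error of the measurement within an array. The standard deviation over spots was 0.03 to 0.07 for Myod1 and for Myog and 0.09 to 0.11 for Pax3, smaller than the spread between arrays for Myod1 and Myog. For Myf5, near background, it was 0.12 to 0.63, and 1 single spot on 1 array carried the mark for well above background. Spots of 1 array share its RNA and are not replicates of a condition.

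The targets that Myog and the Mef2 factors activate during early differentiation were set beside them. All 25 of the listed genes were detected on all 4 arrays, with a median difference of 1.92 between the experiments, against 0.06 for all 15027 detected genes. After scaling to the 75th percentile the median was 2.42, against 0.25. In both conditions 24 of the 25 were higher in experiment 1, against 6224 of the 15027 detected genes. Of the 25, 1 was called at B above 0, Mylpf, a fast myosin light chain, at 3.53 (SE 0.23). Among all detected genes 53 were called by B as higher in experiment 1. By adjusted p among the filtered probes 20 of the 25 were called, all higher, against 990 of the 15027 detected genes called as higher. Ckm, the muscle creatine kinase, differed by 2.82 (SE 0.31) and Tnnc2, the fast skeletal troponin C, by 2.70 (SE 0.27). Ryr1, the calcium release channel, was the exception, with -0.01 in siFxr1 and 0.52 in siControl. Between the conditions, 0 of the 25 were called and their median was 0.17, against 0.02 for all detected genes. The largest absolute differences were those of Chrnd, an acetylcholine receptor subunit, at 1.07, Mybph, a myosin binding protein, at -0.999 and Actc1, the cardiac actin of young muscle, at -0.92. Each had a standard error of 0.93 or more. Here and for the lists below, standard errors between the conditions are of the fit with the condition alone. They include the split between experiments.

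The dimer partners and inhibitors of the myogenic factors, which include E-proteins and Id proteins, had 15 of 19 genes detected on all 4 arrays. Between the experiments 0 of the 15 were called by B. By adjusted p among the filtered probes, 990 of the 15027 detected genes were called as higher in experiment 1 and 1032 as lower. The shares of the lists were not compared with these by a test. Of the 15, 3 were called in this way, all higher in experiment 1. These were Hey1 at 1.99 (SE 0.22) and Hes1 at 1.68 (SE 0.19), both transcriptional repressors downstream of Notch, and Mdfic, a relative of the inhibitor Mdfi, at 1.27 (SE 0.29). Between the conditions 0 were called, with Hes1 at 0.81 (SE 0.94), Hey1 at 0.65 (SE 1.12) and Twist2 at 0.55 (SE 0.18). Within experiments 1 and 2 the differences were 0.85 and 0.77 for Hes1, 0.46 and 0.84 for Hey1 and 0.40 and 0.70 for Twist2.

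Mdfi, which binds myogenic factors and blocks their entry into the nucleus, was singled out after its values were seen, because it was detected on 3 arrays and so stood outside the 15. Its log2 intensities were 9.75 and 6.72 in siFxr1 and 7.67 and 4.37 in siControl, and the last of these was not well above background. The arrays of experiment 1 lay above those of experiment 2, by 3.03 in siFxr1, and the conditions overlapped. In experiment 1, where both arrays were well above background, siFxr1 minus siControl was 2.09. With the condition alone Mdfi was not called (B -4.57, limma adjusted p = 0.975). With the replicate block among the filtered probes B was 2.19 and the limma adjusted p was 0.0304. Between the experiments B was 0.88 and the limma adjusted p was 0.108, and 0.00477 among the filtered probes. Mdfi passed that filter through its siFxr1 arrays, and these results rest in part on the siControl value that was not well above background.

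Of the upstream regulators of the myogenic factors, 16 of 18 were detected. Vgll2, a cofactor of the Tead factors expressed in skeletal muscle, had 11.39 and 10.48 in siFxr1 and 8.88 and 8.46 in siControl. The conditions did not overlap and the difference was 2.26 (SE 0.42), with 2.51 and 2.01 in the experiments. It was not called with the condition alone (B -4.36, limma adjusted p = 0.950). With the replicate block among the filtered probes, it was the 1 gene of the list called at B above 0 (1.97), and its limma adjusted p was 0.0318. Among the 15027 detected genes, 62 were called by B in that fit as higher in siFxr1 and 51 as lower. Tead4, a Tead factor of myoblasts, was at 1.13 (SE 1.05) and Nfix, a factor of fetal muscle, at -0.92 (SE 0.83). Between the experiments Tead4 differed by 1.77 (SE 0.40), Nfix by -1.32 (SE 0.41) and Tead1 by -1.13 (SE 0.19). Of the list, 0 were called by B and 3 of the 16 by adjusted p among the filtered probes. Of the 15027 detected genes, 990 were called in this way as higher and 1032 as lower. The 3 of the list were Tead4 and, named after its values were seen, Pitx3, which were higher in experiment 1, and Tead1, which was lower.

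The Mef2 co-regulators had 14 of 15 genes detected and 0 called by B in either comparison. Hdac4, which represses Mef2 factors, and Cabin1, a repressor of Mef2 in T cells, were lower in experiment 1 in both conditions. Their differences were -1.38 (SE 0.20) and -1.24 (SE 0.21). Hdac4 and Cabin1 were the 2 of 14 called by adjusted p among the filtered probes. Of the 15027 detected genes, 990 were called in this way as higher and 1032 as lower, and the shares were not compared by a test. Between the conditions the largest values were those of Ppargc1a, a coactivator of oxidative metabolism, at 1.08 (SE 0.55), the kinase Camk2d at -0.56 (SE 0.28) and Maml1 at 0.47 (SE 0.18). Of the progenitor and satellite cell genes, 20 of 21 were detected and 0 were called by B. Heyl, a Notch target of satellite cells, differed between the experiments by 3.13 (SE 0.56), Spry1, an inhibitor of growth factor signalling, by 1.25 (SE 0.46) and the cadherin Cdh15 by 0.97 (SE 0.20). Heyl and Cdh15, both higher in experiment 1, were the 2 of 20 called by adjusted p among the filtered probes, beside the same 990 higher and 1032 lower of 15027. Between the conditions Spry1 was at 2.11 (SE 0.82), the syndecan Sdc4 at 1.29 (SE 0.57) and Heyl at 1.26 (SE 1.82).

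**Figure D4:**
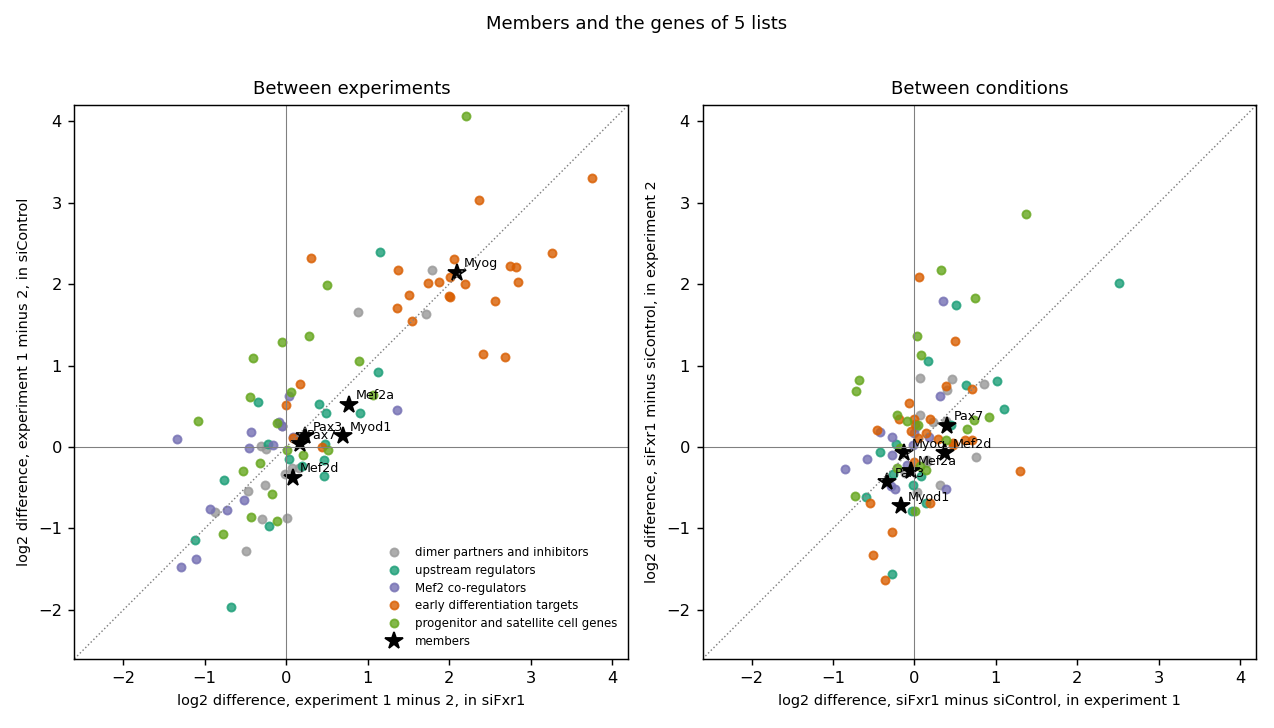
Log2 differences of the members (stars) and of the genes of 5 lists (dots, coloured by list) detected on all 4 arrays, at left experiment 1 minus experiment 2 in siFxr1 (x axis) against siControl (y axis), and at right siFxr1 minus siControl in experiment 1 (x axis) against experiment 2 (y axis), with the line of equality dotted. At left Myog lies at 2.09 and 2.14 among the early differentiation targets, while the other members lie nearer to 0.

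The medians of the remaining lists between the experiments were -0.15 for the dimer partners, 0.08 for the upstream regulators, -0.18 for the Mef2 co-regulators and 0.09 for the progenitor genes. After scaling to the 75th percentile, which moved the median of all detected genes from 0.06 to 0.25, they were 0.18, 0.30, 0.12 and 0.54, so the sign of the first and the third depended on the scaling.

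Among 15026 detected genes, those whose deviations from their own mean over the 4 arrays were most like those of Myog were Ccny, Enkur, 2810404M03Rik, Slc24a3 and Cacna1s, the calcium channel subunit of skeletal muscle, with root mean square differences from 0.07 to 0.09 on the log2 scale. For Myod1, Inafm1, Eral1, Crip1 and LOC674157 were among them, from 0.02 to 0.03. With 4 arrays, many genes can share such a pattern.

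Markers of other cell types also moved with the experiments or the conditions. The summed level of the 4 neuron markers was 12.84 and 12.56 on the experiment 1 arrays and 14.09 and 14.18 on those of experiment 2, with 3 of the 4 detected and Rbfox3 on 0 arrays, and Snap25 alone was 2.20 lower in experiment 1 on the log2 scale. That of the leukocyte markers was 10.62 and 10.56 against 9.51 and 9.62, with 1 of 4 on all arrays. This was Cd3e, which made up nearly all of the sum, at 10.60 and 10.52 against 9.40 and 9.48. Cd68, on 2 arrays, and Emr1, on 0 arrays, went the other way, at -0.64 and -1.46 for experiment 1 minus experiment 2. Ptprc, on 0 arrays, was at 0.02. The adipocyte markers lay between 8.14 and 10.17 and the fibroblast markers between 10.97 and 11.95. Lists whose sums separated by condition were the osteoblast markers, at 9.45 and 9.38 in siFxr1 and 8.40 and 7.48 in siControl, and the endothelial markers, at 12.11 and 11.87 against 11.63 and 11.75. Of each of these lists 2 of the 4 markers were detected on all arrays. Among the osteoblast markers these were Dmp1 and Bglap, 2.08 and 1.24 higher in siFxr1. Sp7, on 3 arrays, was at 0.47, and Ibsp, on 0 arrays, went the other way at -0.35. Among the endothelial markers they were Kdr and Cdh5, 0.30 and 0.16 higher in siFxr1. Kdr made up most of that sum, at 12.07 and 11.79 in siFxr1 and 11.58 and 11.69 in siControl. The myoblast markers summed to 17.85 and 17.89 in experiment 1 and to 17.62 and 17.37 in experiment 2. The part of these markers in the differences of Myog, Pax3 and Pax7 was not tested.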

How the data were processed

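RNA of 2 siFxr1 and 2 siControl samples of C2C12 cells was measured on 1-colour Agilent mouse arrays of 62976 spots, and samples were grouped by their labels. The authors deposited for each array the background-corrected Cy3 intensity of every spot from Agilent Feature Extraction 10.7.3.1, not normalized between arrays, and a table of intensities normalized between arrays. Per the labels, limma was used by the authors, and their methods name quantile normalization and B above 0.

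The intensities were taken to log2, quantile-normalized over 59305 non-control spots and, after outlier spots (145 to 177 per array) were set to missing, averaged to 55681 probes in R 4.3.3. Models were fitted with lmFit and eBayes of limma 3.58.1 and an expected share of changed probes of 0.01, with the condition alone for siFxr1 against siControl, and with the condition as a term for the experiments. Benjamini-Hochberg adjustment ran over all probes. No spot was saturated (0 per array). An exact permutation test of 2 against 2 arrays cannot give a two-sided p below 0.333.

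The members, lists and tests were chosen with earlier results of these data known. Genes named from the lists were the 3 with the largest absolute difference among those detected on all 4 arrays, and the 5 most like Myod1 and Myog were chosen by root mean square difference, of which 1 for Myod1 is not reported here. Where a gene has several probes, the brightest detected one stood for it in the lists, and 26413 probes were named by RefSeq accession. For every member gene, all probes are given.

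The labels number the experiments, and same-numbered arrays share a slide, so the numbers pair the samples. Over 25540 probes, what remained after the condition means were taken off correlated at 0.714 within experiments, and blocking on the experiment brought the median residual standard deviation from 0.340 to 0.190.

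The fit with terms for the condition and the experiment was tested on simulated data, and the fit with the condition alone was not. The test did not pass with the noise first chosen, and it passed after the noise was drawn from limma's own variance prior, a change made after that failure. The model assumes this prior, so the pass says little about the noise of real arrays. In the test that passed, probes that had not been shifted also reached B above 0, while 0 reached an adjusted p under 0.05. Alternatives were other scalings and background corrections, the authors' table, a filter on dim probes, a variance prior with a trend, the block, the 4 ratios and leaving out each array.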

Additional observations from a re-analysis of the deposited data

Results flagged for a closer look

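For the brighter Mef2d probe (A_55_P1966958), the arrays of the 2 conditions moved in opposite directions between the experiments. Experiment 1 minus experiment 2 was 0.08 in siFxr1 and -0.38 in siControl, which is a gap of 0.46 on the log2 scale. For the Pax3 probe A_51_P315734 the same values were 0.05 and -0.11, a gap of 0.16. Opposite signs of this kind were not particular to these probes. Of the 15027 genes detected on all 4 arrays, 75.4% had the same sign of the experiment difference in both conditions. With 1 array per condition in each experiment, neither gap was tested.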

How the results depend on the processing

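The call of 0 member probes between the conditions held under all 14 alternatives. Probes called between the conditions rose from 0 to 354 (280 by adjusted p) with the replicate block and the filter on dim probes, and to 1107 (1064) with the 4 ratios, which reuse arrays, whereas the replicate block alone called 0. Myog was 0.032 at the 75th percentile scaling. With 1 array left out, the condition difference ranged from -1.17 to 0.97 for Myog, from -0.55 to 0.21 for Mef2a and from -0.037 to 0.34 for Mef2d. Those fits had no term for the experiment, so with an array missing the split between experiments enters the condition difference. Within experiments 1 and 2 the Myog difference was -0.13 and -0.08. Myod1, Pax3 and Pax7 kept their sign under all 14 alternatives, with Myod1 from -0.79 to -0.10.

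Between the experiments, 664 probes were called (0 by adjusted p). The count became 3202 (5846) with the 75th percentile scaling, 1921 (4471) with normexp, 2127 (5092) without background correction, 1717 (3686) with the median minus background, 2240 (5450) with the authors' table and 1284 (4342) with the filter. The trended prior gave 308 by adjusted p. A filter on detection on all 4 arrays, chosen after seeing the data, gave 1581 (5278). Leaving out 1 array gave 0 to 325, with 0 member probes called each time, and the other 9 alternatives called 1 member probe each. Pax7 was -0.24 at the 75th percentile scaling. With 1 array left out, Myod1 ranged from 0.05 to 0.78, Pax7 from -0.10 to 0.30, Pax3 from -0.031 to 0.40 and Mef2d from -0.34 to 0.043. The fits with 1 array left out had no term for the condition, so the condition difference enters their values. Apart from that, the cause of these changes was not tested. Left-out arrays leave 1 sample in an arm, which is assumed to vary like the others.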
